A study of Ovis aries with 36 samples.

Results

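The effect of maternal diet on the perirenal fat of the sheep fetus was examined by comparing the pools from corn-fed (CN) dams with those from dams fed dried corn distillers grains (DG). These were chosen by their labelled depot and maternal diet, and comprised 8 of the 36 libraries of the series, 4 from each diet. In each diet 2 pools (F1 and F2) held RNA of female fetuses and 2 (M1 and M2) RNA of male fetuses. The dams were Polypay ewes bred to a single sire, the CN and DG diets were both limit-fed from mid gestation on, and the fetuses were collected near term, so a DG diet is read here against another limit-fed diet and not against an unrestricted one. The study set the diets to equal energy intake, and its DG dams took in more crude protein, fibre and fat than its CN dams. By the study's description CN pool F2 held the RNA of a single fetus, while every other CN and DG pool mixed RNA of more than 1 fetus. Every CN and DG pool except CN pool F2 also shared a dam with another pool of its diet, so the 4 pools of a diet were not independent. The tests treat them as independent, and the p-values measure the spread between such pools rather than between single fetuses. A further 4 perirenal pools came from dams fed haylage (HY, Hay in the labels), and they served to estimate the spread and as a side comparison.

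Perirenal fat of the late fetal lamb is a mixture of white and brown adipocytes held in a stroma of fibroblasts, vessels and nerves. The brown adipocytes make UCP1, the mitochondrial uncoupling protein that produces heat in the newborn. As the depot grows, its adipocytes are enclosed in a basement membrane of laminins, type IV collagen and heparan sulfate proteoglycans, with fibrillar collagens and elastic fibres between them. This matrix is anchored to actin filaments in the cell through integrins and the focal adhesion proteins.

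The libraries held adipose tissue by their markers. ADIPOQ, the adipocyte hormone adiponectin, lay between 2752 and 10478 normalised counts per 1000000 (CPM) in the 12 perirenal pools, against 2.80 to 34.6 CPM in the muscle pools. UCP1 lay between 422 and 1158 CPM in perirenal fat, between 10.5 and 134 CPM in the subcutaneous pools and at most at 0.204 CPM in muscle. CKM, the creatine kinase of skeletal muscle, reached 35.5 CPM at most in perirenal fat. Total counts ran from 7802700 in DG pool F2 to 15913813 in DG pool F1, and each pair of pools differed by more than the sampling noise of its counts. DG pool F2 lay farthest from the other pools on the first principal component and had the largest share of its counts in unnamed loci, 13.3% against 7.63% to 12.7% in the others.

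With the test used here, the DG diet was associated with higher counts of a small set of genes. Of 18246 loci tested with edgeR's quasi-likelihood test, 21 passed FDR ≤0.05, and all 21 were higher in DG, which is 0.115% of the loci tested. None was lower in DG, with 0% past the threshold in that direction, whereas DESeq2 called 239 loci higher and 33 lower. In each of the 21, all 4 DG pools lay above all 4 CN pools, an arrangement found in 4.21% of all tested loci, whereas all CN pools lay above all DG pools in 2.23%. At unadjusted p under 0.05 there were 1807 loci, 1291 of them higher in DG (7.08% of loci tested) and 516 lower (2.83%). A wider FDR ≤0.20 took in 305 loci higher in DG (1.67%) and 36 lower (0.197%). The median log2 fold change of DG over CN over all tested loci was -0.01, and 48.8% of loci had a value above 0. These shares over all tested loci are the background for the counts of list members given below.

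The number past FDR ≤0.05 depended on every pool. Without DG pool F1 it rose to 78, which held all 21, and without CN pool F1 it was 3, of which 1 was among the 21. Without CN pool F2 1 locus passed and that was lower in DG. It was 0 without CN pool M1, CN pool M2, DG pool F2, DG pool M1 or DG pool M2. In these 8 fits 1354 to 1889 loci had an unadjusted p under 0.05. Each of the 21 loci still had a higher mean in DG with an unadjusted p under 0.05 in all 8 of these fits. As all their DG pools lay above all their CN pools, their direction in these fits was largely fixed in advance. With all pools used, the FDR values of these loci ran from 0.038 to 0.049, so that none was far inside the threshold, and MBD3 lay just outside it at 0.053.

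**Figure D1:**
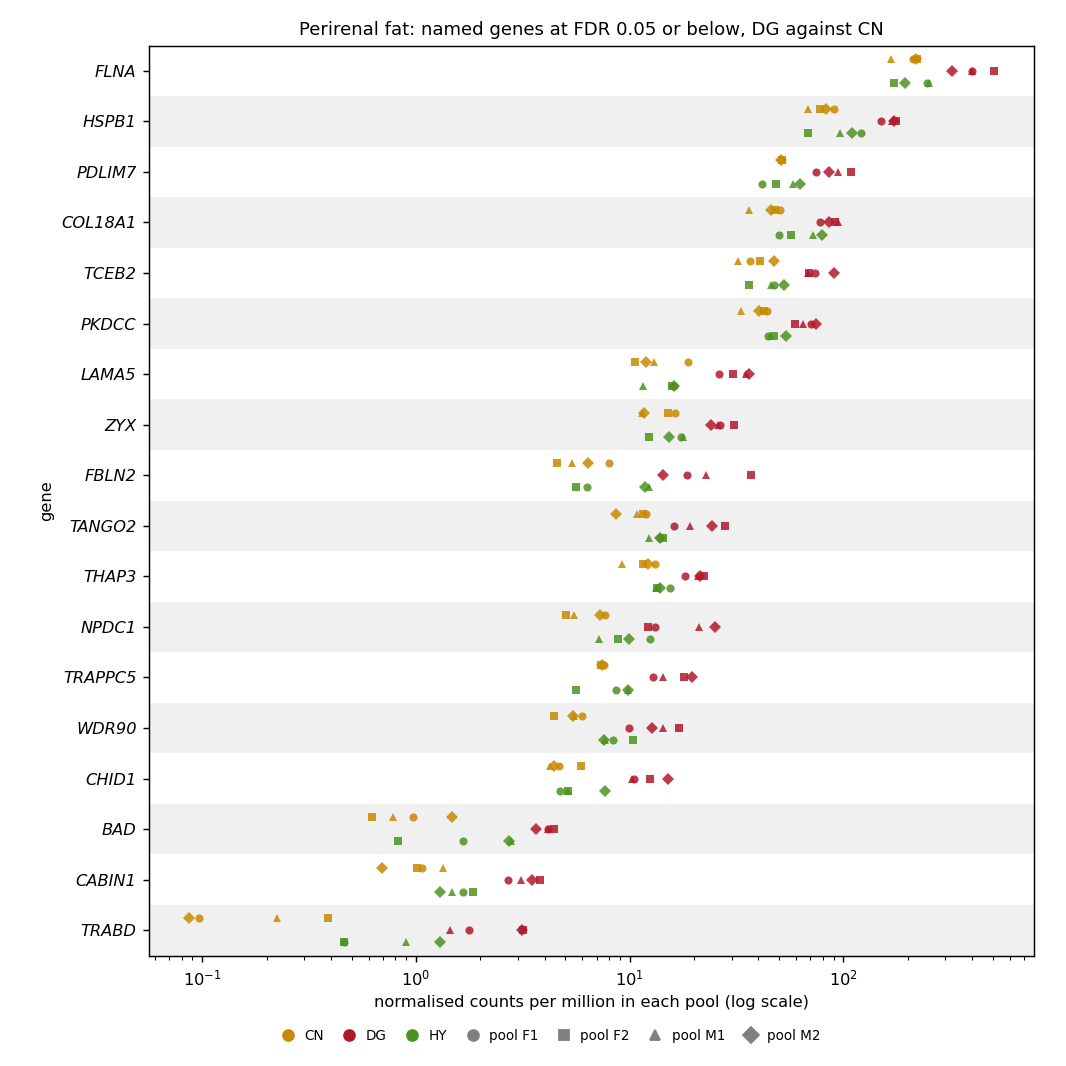
CPM (log scale) of 18 of the 19 named genes at FDR ≤0.05 in each perirenal pool, with CN, DG and HY pools in separate rows of points within each gene and the point shape giving the pool. In every gene drawn the 4 DG points lie to the right of the 4 CN points, as in FLNA (321 to 505 CPM against 167 to 221 CPM).

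Genes of the matrix that surrounds the adipocytes were among those that rose. The 8 lists of matrix and adhesion genes held 201 tested genes, of which 3 passed FDR ≤0.05 and 18 passed FDR ≤0.20, all higher in DG. Over all tested loci 0.115% and 1.67% were higher in DG at these cut-offs. The median log2 fold change over these genes was 0.33, with 165 of 201 above 0, beside -0.01 over all tested loci. The median stayed between 0.32 and 0.33 under the other scalings, and between 0.19 (without DG pool F1) and 0.40 (without DG pool M2) when single pools were left out. Members named with an FDR between 0.05 and 0.20 were picked out after their values were seen.

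In the basement membrane list, 1 of 21 tested genes passed the threshold, and the list median was 0.19 (0.12 without CN pool F2). LAMA5, the alpha-5 chain of laminins (chr13:54200421-54252654 on Oar_v3.1), was measured at 18.7, 10.6, 12.98 and 11.9 CPM in CN pools F1, F2, M1 and M2 and at 26.1, 30.4, 34.9 and 36.3 CPM in the same order of DG pools. All DG pools exceeded the highest CN pool, and LAMA5 rose by 1.24 ± 0.19 (log2 ± SE, FDR = 0.038, n = 4 pools per diet in edgeR's quasi-likelihood fit). HSPG2, which encodes perlecan, the heparan sulfate proteoglycan that cross-links the basement membrane, had 114, 71.6, 57.3 and 69.4 CPM in CN and 129, 167, 167 and 184 CPM in DG. The lowest DG pool of HSPG2 was close to the highest CN pool, both of them pool F1, and the difference of 1.05 ± 0.20 did not pass (FDR = 0.064). COL4A6, a minor type IV collagen chain, had 1.16, 1.86, 2.13 and 1.74 CPM in CN and 12.3, 12.2, 5.47 and 2.81 CPM in DG, a difference of 2.25 ± 0.43 (FDR = 0.064) that came mainly from both female DG pools. The major chains were less different, at 0.21 for COL4A1, 0.64 for COL4A2, -0.14 for LAMB1 and 0.09 for LAMC1, none of which passed.

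COL18A1, whose product collagen XVIII lies in basement membranes and is the source of endostatin (chr1:263365063-263423202), rose from 44.9 ± 6.11 CPM in CN to 87.2 ± 7.39 CPM in DG (mean ± SD, n = 4). The CN pools had 50.2, 47.7, 36.2 and 45.6 CPM and the DG pools 77.4, 91.7, 93.98 and 85.6 CPM, so that the groups were well apart, and the log2 fold change was 0.95 ± 0.15 (FDR = 0.043). It was the 1 gene past the threshold among 17 tested collagens outside the fibril-forming class, whose median was 0.42. The chains of collagen VI, which forms beaded filaments close to adipocytes, followed without passing, COL6A1 with 0.75 ± 0.19 (FDR = 0.14), COL6A2 with 0.96 ± 0.24 (FDR = 0.14) and COL6A3 with 0.35 (FDR = 0.68). COL6A1 was at 88.3, 98.1, 116 and 103 CPM in CN and at 184, 235, 142 and 122 CPM in DG. The female DG pools were the highest, and DG pool M2 was only just above CN pool M1.

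The fibril-forming collagens had higher means in DG without passing. None of 10 tested genes reached FDR ≤0.20, although 9 had values above 0 and the median was 0.50. At unadjusted p under 0.05 there were 2, and DESeq2 called 0. COL1A1, a chain of the main fibrillar collagen, was measured at 136, 199, 425 and 142 CPM in CN and at 1154, 555, 662 and 144 CPM in DG, with 122, 87.7, 624 and 236 CPM in HY. DG pool M2 lay within the CN range while the other DG pools were above it, and the difference of 1.48 ± 0.73 was within the spread of the pools (FDR = 0.56). COL3A1, the collagen of fine reticular fibres, likewise ranged from 1671 to 5446 CPM in DG and from 2105 to 3751 CPM in CN (0.42 ± 0.36, FDR = 0.80). FN1, encoding fibronectin, averaged 189 ± 22.7 CPM in CN and 302 ± 135 CPM in DG (0.67 ± 0.35, FDR = 0.59), and again DG pool M2 was the lowest of the 8 pools.

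Elastic fibre and microfibril genes had the highest median of the function lists, 0.62 over 24 tested genes with 23 above 0. FBLN2, encoding fibulin-2, a glycoprotein of elastic fibres and basement membranes (chr19:58162479-58180790), passed the threshold. Its CN pools had 8.03, 4.58, 5.37 and 6.36 CPM and its DG pools 18.5, 37.1, 22.8 and 14.3 CPM, and although the DG pools were widely spread they did not overlap with CN, giving a rise of 1.92 ± 0.33 (FDR = 0.047). LTBP4, which binds latent TGF-beta to microfibrils, had 56.2, 47.98, 49.1 and 41.9 CPM in CN against 88.6, 112, 94.3 and 85.9 CPM in DG and missed the threshold narrowly (0.96 ± 0.18, FDR = 0.054). EFEMP2, or fibulin-4, needed for elastic fibre assembly, averaged 13.98 ± 1.73 CPM in CN and 24.2 ± 2.48 CPM in DG without overlap of the pools (0.79 ± 0.18, FDR = 0.11).

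ELN, which encodes elastin itself, illustrated a second kind of pattern. It was at 22.4, 23.1, 27.7 and 19.95 CPM in the CN pools and at 188, 127, 78.3 and 20.997 CPM in the DG pools, and therefore lay far above CN in DG pools F1, F2 and M1 and within the CN range in DG pool M2. The difference of 2.16 ± 0.64 did not pass (FDR = 0.26). MFAP4, a microfibril-associated glycoprotein, likewise had its lowest DG value in pool M2, with 20.9, 29.5, 10.01 and 3.40 CPM in DG against 2.71, 3.34, 5.71 and 4.53 CPM in CN (1.97 ± 0.54, FDR = 0.18). PTGIS, the prostacyclin synthase, was at 7.65, 8.23, 7.94 and 7.84 CPM in CN and at 23.3, 31.8, 15.8 and 7.14 CPM in DG (1.30 ± 0.41, FDR = 0.26). In these genes DG pool M2 stood with the CN pools, while in LAMA5, COL18A1 and LTBP4 it stood with the other DG pools.

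**Figure D2:**
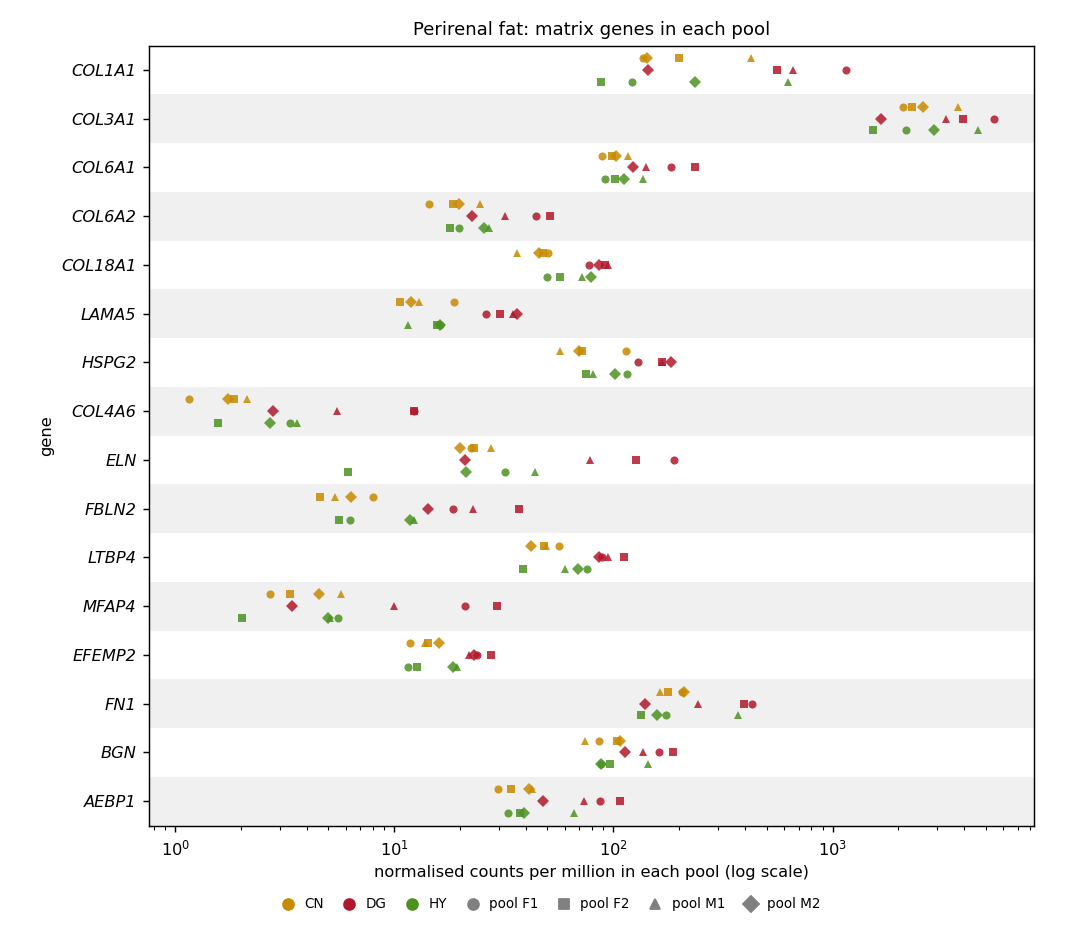
CPM (log scale) of 16 matrix genes in each perirenal pool, with CN, DG and HY pools in separate rows of points within each gene. For COL18A1, LAMA5, FBLN2, LTBP4 and EFEMP2 the DG points are all to the right of CN, whereas for COL1A1, COL3A1, ELN, MFAP4 and FN1 DG pool M2 (red diamond) falls among or below the CN points.

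Among proteoglycans and matricellular proteins, none of 48 tested genes passed FDR ≤0.05 and 4 passed FDR ≤0.20, with a median of 0.35 (0.14 without DG pool F1) and 42 values above 0. At unadjusted p under 0.05, 11 were higher in DG and 2 lower, beside 7.08% and 2.83% of all tested loci, and DESeq2 called 2. Those 4 were BGN, the small collagen-binding proteoglycan biglycan (0.69 ± 0.19, FDR = 0.18), AEBP1, a collagen-binding protein (1.10 ± 0.25, FDR = 0.11), the glypican GPC1 (1.11 ± 0.29, FDR = 0.16) and the integrin ligand NPNT (1.32 ± 0.36, FDR = 0.17). BGN was at 86.04, 104, 74.2 and 107 CPM in CN and 162, 187, 137 and 113 CPM in DG, with no overlap. Of 23 tested collagen synthesis enzymes only COLGALT1, which adds galactose to collagen, passed FDR ≤0.20 (0.81 ± 0.22, FDR = 0.16). None of 36 tested matrix proteases and inhibitors did (median 0.26, or 0.09 without DG pool F1). Among 22 integrins and adhesion receptors 3 did, namely ITGB5 (0.42 ± 0.11, FDR = 0.14), ITGA3 (0.54 ± 0.15, FDR = 0.19) and ITGB4, the partner of integrin alpha-6 in laminin binding (0.93 ± 0.25, FDR = 0.16). ITGB4 was at 48.3 to 51.5 CPM in 3 DG pools and at 24.7 CPM in DG pool M2, inside the CN range of 18.1 to 28.6 CPM.

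Genes of the nuclear lamina, cytoskeleton and contractile stroma gave the largest number of calls of any single list. Of 46 tested, 3 passed FDR ≤0.05 and 10 passed FDR ≤0.20, all higher in DG, with a median of 0.30. The shares over all tested loci were 0.115% and 1.67%. FLNA, the actin cross-linker filamin A (chrX:77260855-77284398), was at 211, 221, 167 and 219 CPM in CN and at 398, 505, 397 and 321 CPM in DG, a 1.98-fold rise of the mean (0.99 ± 0.17, FDR = 0.048). ZYX, the focal adhesion protein zyxin (chr4:106213266-106237111), rose from 13.6 ± 2.46 to 26.8 ± 2.85 CPM (0.97 ± 0.16, FDR = 0.047). PDLIM7, an actin-associated PDZ and LIM domain protein, rose from 51.3 ± 0.476 to 90.6 ± 14.4 CPM (0.82 ± 0.14, FDR = 0.048). The CN pools of PDLIM7 lay within 50.8 to 51.9 CPM, and the lowest DG pool was at 74.1 CPM.

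The 7 further genes of that list at FDR ≤0.20 were TLN1, encoding talin, which links integrins to actin (0.53 ± 0.13, FDR = 0.12), ACTN4 (0.96 ± 0.26, FDR = 0.16), PLEC, the cytolinker plectin (0.95 ± 0.22, FDR = 0.11), CSRP1 (1.11 ± 0.27, FDR = 0.12), TNS1 (0.47 ± 0.13, FDR = 0.16), PALLD (1.63 ± 0.41, FDR = 0.14) and LMNA, which encodes the A-type lamins of the nuclear envelope (0.82 ± 0.19, FDR = 0.11). LMNA was at 34.1, 32.7, 21.03 and 27.3 CPM in CN and at 53.3, 45.5, 60.04 and 44.4 CPM in DG. Vimentin (VIM, -0.04), non-muscle myosin (MYH9, -0.12) and lamin B1 (LMNB1, -0.02) had values close to 0, so that not every member of the list had a higher mean. HSPB1, the small heat shock protein HSP27, which also binds actin (chr24:34256245-34257717), rose from 79.7 ± 9.17 CPM to 167 ± 11.4 CPM, with CN pools at 90.01, 77.6, 68.2 and 82.9 CPM and DG pools at 150.0, 175, 169 and 172 CPM (1.06 ± 0.16, FDR = 0.038). The other 12 tested heat shock genes did not pass, and the median of that list was 0.08.

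Markers of stromal cell types also had higher means in DG, although none of them passed FDR ≤0.05 in edgeR's quasi-likelihood test or, but for 1 fibroblast marker, with DESeq2. Of 22 adipose progenitor and fibroblast markers 19 were above 0 (median 0.40), and their summed level ran from 10423 to 11221 CPM in the CN pools and from 9847 to 16458 CPM in the DG pools. Some of them, such as DCN and LUM, are also in the matrix lists, so these results are not independent. Of 11 tested smooth muscle and pericyte markers 9 were above 0 (median 0.42), at 828 to 1177 CPM summed in CN and 1091 to 1643 CPM in DG. All 11 tested Schwann cell and nerve markers were above 0 (median 0.72), at 148 to 176 CPM in CN and 123 to 392 CPM in DG, and of the 16 found in the files MBP and DBH were at 0 in all CN pools. Mesothelial and epithelial markers, of which only 4 of 16 could be tested, summed to 22.6 to 91.8 CPM in CN and 27.7 to 386 CPM in DG. Endothelial markers had a median near 0 (-0.0045 over 17 genes), macrophage and leukocyte markers one of -0.04 over 20 and skeletal muscle markers one of 0.0021 over 23. The skeletal muscle median rested on single pools, from -0.59 without DG pool M1 to 1.21 without CN pool M2, and these markers summed to 94.1 to 1198 CPM in CN and 105 to 627 CPM in DG. Red blood cell markers summed to 171 to 229 CPM in CN and 178 to 215 CPM in DG (median 0.15 over 9), and immediate early genes, which respond to handling of the tissue, had a median of -0.06 over 19. Kidney markers summed to at most 10.5 CPM in any pool of these diets, and adrenal markers to 314 to 350 CPM in CN and 269 to 402 CPM in DG. Without DG pool F1 the fibroblast median was 0.02, whereas that of smooth muscle was 0.52 and that of the Schwann cell list 0.46. Their part in the matrix and cytoskeletal results was not tested, and in bulk tissue more cells of a type and more RNA per cell cannot be told apart.

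Some genes of the secretory route were also among those that rose. The tested list of endoplasmic reticulum folding and secretion had no member past FDR ≤0.05 (38 tested, 21 above 0, median 0.02, 2 called with DESeq2). At unadjusted p under 0.05, 4 of its members were higher in DG and 1 lower, beside 7.08% and 2.83% of all tested loci. All DG pools lay above CN in 2 members, and all CN pools above DG in 2. The genes named in this paragraph were sorted together after their values were seen. TRAPPC5, a subunit of the TRAPP complex that tethers vesicles to the Golgi, rose from 7.43 ± 0.0816 to 16.2 ± 3.09 CPM (1.12 ± 0.20, FDR = 0.048). TANGO2, named for transport and Golgi organization, rose from 10.7 ± 1.47 to 21.8 ± 5.18 CPM (1.02 ± 0.18, FDR = 0.048). In both genes the pools of the diets were apart. TMED1, SEC61A1, RPN1 and COPE, which act in cargo sorting, translocation, glycosylation and vesicle coating, had values between 0.56 and 0.80 and FDR between 0.079 and 0.13. PKDCC, a secreted kinase of extracellular proteins, rose from 39.9 ± 4.82 to 67.3 ± 6.57 CPM (0.75 ± 0.12, FDR = 0.043), and FAM20C, the Golgi kinase of secreted phosphoproteins, had 0.78 ± 0.19 (FDR = 0.12) with overlapping pools.

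The remaining named genes past the threshold had varied functions. WDR90, a WD-repeat protein of centrioles (chr24:489842-511494), stood first in the ranking, with 6.001, 4.43, 5.48 and 5.40 CPM in CN and 9.95, 17.05, 14.3 and 12.8 CPM in DG (1.34 ± 0.20, FDR = 0.038). CHID1, which has a chitinase-like domain, rose from 4.81 ± 0.744 to 12.1 ± 2.23 CPM (1.32 ± 0.21, FDR = 0.043). TCEB2, or elongin B, rose from 39.3 ± 6.50 to 75.01 ± 10.2 CPM (0.93 ± 0.15, FDR = 0.043). NPDC1 rose by 1.49 ± 0.26 (FDR = 0.047), and THAP3 by 0.84 ± 0.14 (FDR = 0.047). Each of these had all DG pools above CN.

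The last 3 named calls rested on few reads. TRABD, of the TraB domain family, had 1, 5, 2 and 1 reads in the CN pools and 29, 25, 14 and 37 reads in the DG pools, a ratio of 11.1 with a 95% counting interval of 5.64 to 25.004 that does not cover the spread between pools (FDR = 0.038). BAD, which promotes apoptosis by binding BCL2 family proteins, had 0.968, 0.621, 0.783 and 1.48 CPM in CN and 4.15, 4.42, 4.13 and 3.66 CPM in DG (2.07 ± 0.37, FDR = 0.049), at a mean of 26.0 counts per pool. CABIN1, a calcineurin-binding protein, passed at a locus with a mean of 21.3 counts (1.66 ± 0.28, FDR = 0.044), while a second locus of that name with a mean of 88.1 counts had -0.11 ± 0.39 (FDR = 0.97), so no direction is given for the gene. The 2 unnamed loci past the threshold were XLOC_033380 (2.88 ± 0.40, FDR = 0.038), with 8.52, 4.35, 8.17 and 8.54 CPM in CN and 30.2, 72.7, 48.1 and 66.6 CPM in DG, and XLOC_005513, with 11 reads in the CN pools and 110 reads in the DG pools.

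No tested gene of the mature adipocyte lists passed the threshold. Of 36 tested genes of the lipid droplet and adipocyte secretion, 0 passed FDR ≤0.05 and 2 passed FDR ≤0.20, with a median of 0.08. At unadjusted p under 0.05, 7 were higher in DG and 2 lower, and DESeq2 called 2, both higher. Of the 201 matrix and adhesion genes, 47 were higher and 3 lower at that level, beside 7.08% and 2.83% of all tested loci. All DG pools lay above CN in 4 of these 36 and in 23 of the 201 matrix and adhesion genes, beside 4.21% of all tested loci. ADIPOQ was at 4921, 3314, 8672 and 5167 CPM in CN pools F1, F2, M1 and M2 and at 3663, 10478, 2752 and 3559 CPM in DG, with DG pool F2 far above the other DG pools (-0.11 ± 0.46, FDR = 0.97). PLIN1, the perilipin that coats the lipid droplet, averaged 723 ± 171 CPM in CN and 594 ± 229 CPM in DG (-0.28 ± 0.28, FDR = 0.83). LEP, encoding leptin, was at 38.8, 39.1, 42.5 and 39.9 CPM in CN and at 51.7, 58.5, 25.7 and 36.4 CPM in DG, and although the means were alike the DG pools were spread more widely (0.10 ± 0.23, FDR = 0.94).

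FABP4, the fatty acid carrier of adipocytes, was among the 4 members of that list in which all DG pools lay above CN. It ran from 1519 to 2196 CPM in CN and from 2579 to 2928 CPM in DG without overlap, and the difference of 0.58 ± 0.20 nonetheless did not pass (FDR = 0.32). The HY pools were higher still, at 3403 to 5991 CPM. DGAT1, which makes triacylglycerol, averaged 349 ± 32.9 CPM in CN and 562 ± 136 CPM in DG (0.69 ± 0.20, FDR = 0.20), and LRP1, the endocytic lipoprotein receptor, 62.8 ± 6.40 and 112 ± 21.5 CPM (0.84 ± 0.17, FDR = 0.074). Of 26 tested genes of fatty acid synthesis and uptake none passed FDR ≤0.20, with a median of -0.12 and 8 values above 0. At unadjusted p under 0.05, 2 were higher in DG and 1 lower, beside 7.08% and 2.83% of all tested loci, and DESeq2 called 0. FASN (0.02), ACACA (-0.01), SCD (-0.45) and ACLY (-0.47) were all far from the threshold. PPARG was not analysed here.

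No gene of the brown fat programme passed the threshold. Of 29 tested genes 1 passed FDR ≤0.20, and the median was -0.02. At unadjusted p under 0.05, 2 genes were higher in DG and 1 lower, beside 7.08% and 2.83% of all tested loci, and 1 was called with DESeq2. UCP1 (chr17:16744036-16885304) was at 684, 797, 846 and 839 CPM in CN and at 754, 1158, 479.6 and 739.6 CPM in DG. The DG pools thus enclosed the whole CN range, and the difference was -0.02 ± 0.23 (FDR = 0.99). CIDEA, a lipid droplet protein of brown adipocytes, averaged 158 ± 43.2 CPM in CN and 164 ± 40.9 CPM in DG (0.05 ± 0.22, FDR = 0.97). DIO2, the deiodinase that activates thyroid hormone, had 92.8 ± 33.1 and 130.4 ± 34.5 CPM (0.49 ± 0.24, FDR = 0.55), and PPARGC1A, the coactivator of mitochondrial genes, 5.35 ± 2.38 and 4.87 ± 2.05 CPM (-0.15 ± 0.39, FDR = 0.95).

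PRDM16, a transcriptional regulator that commits cells to the brown fate, was the 1 member of that list at FDR ≤0.20. Its CN pools had 5.03, 7.38, 5.82 and 4.88 CPM and its DG pools 10.99, 12.2, 9.39 and 7.65 CPM, without overlap, but the difference of 0.80 ± 0.21 did not pass FDR ≤0.05 (FDR = 0.16). Among other genes of the list, EBF2 had -0.09 and PPARA -0.40, neither past the threshold. Mitochondrial genes had medians slightly below 0, with -0.17 over 53 subunits of oxidative phosphorylation, -0.16 over 32 genes of fatty acid oxidation and -0.14 over 22 of the citrate cycle. None of these genes passed FDR ≤0.20, and DESeq2 called 0. At unadjusted p under 0.05, 6 were higher in DG and 1 lower, beside 7.08% and 2.83% of all tested loci. The oxidative phosphorylation median lay between -0.32 (without DG pool F1) and -0.02 (without DG pool M1), that of fatty acid oxidation between -0.23 (without DG pool F2) and -0.04 (without DG pool M1), and that of the citrate cycle between -0.30 (without DG pool F2) and 0.02 (without CN pool M1 or DG pool M1).

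**Figure D3:**
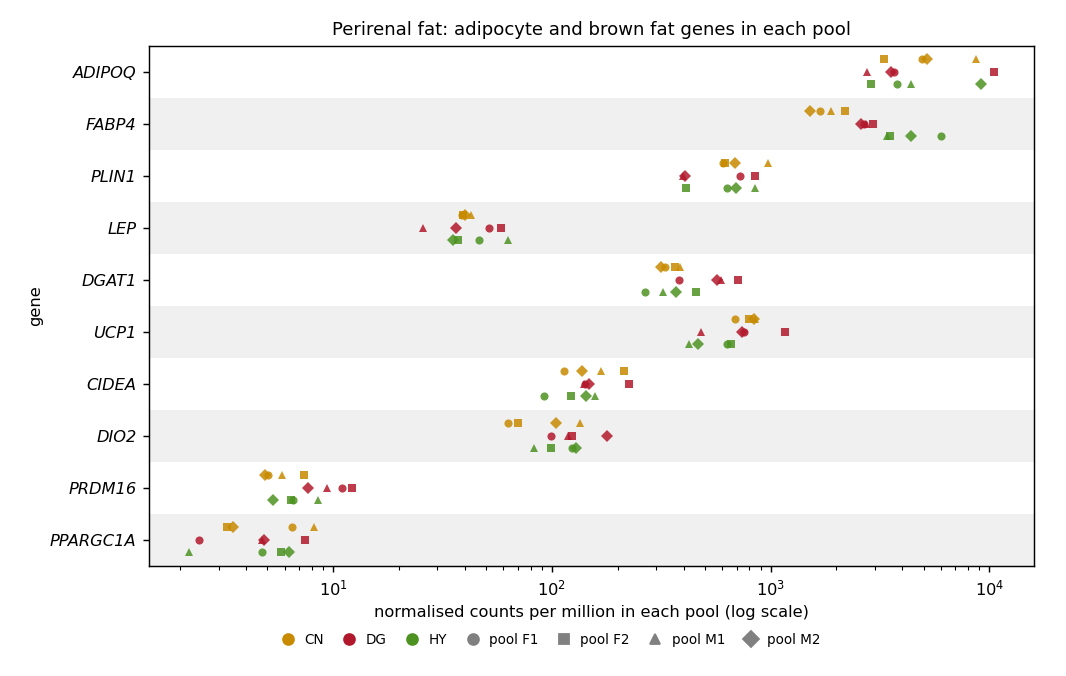
CPM (log scale) of adipocyte and brown fat genes in each perirenal pool, with CN, DG and HY pools in separate rows of points. DG and CN points overlap for ADIPOQ, PLIN1, LEP, DGAT1, UCP1, CIDEA, DIO2 and PPARGC1A, and are apart for FABP4 and PRDM16, neither of which passed FDR ≤0.05.

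Regulators of adipose development gave no call at FDR ≤0.05 in any list in edgeR's quasi-likelihood test. DESeq2 called 6 chromatin regulators, 2 adipogenic regulators, 2 genes of the Wnt list, 1 of the TGF-beta and BMP list and 0 of the IGF and insulin axis, all higher in DG, and at unadjusted p under 0.05 the same lists had 15, 4, 6, 7 and 1 genes higher in DG, with 1 lower, an adipogenic regulator. Among 73 tested chromatin regulators, 6 passed FDR ≤0.20, all higher in DG, and 13 had all DG pools above CN (median 0.08). Over all tested loci these shares were 1.67% and 4.21%, and 7.08% were higher in DG at unadjusted p under 0.05. MBD3, a subunit of the NuRD deacetylase complex, was at 41.2, 27.8, 31.4 and 33.5 CPM in CN and at 47.7, 64.6, 63.8 and 74.04 CPM in DG (0.90 ± 0.17, FDR = 0.053). The others at FDR ≤0.20 included the histone demethylase KDM4B (0.90 ± 0.18, FDR = 0.064), the linker histone H1FX (1.33 ± 0.30, FDR = 0.11), the deacetylase HDAC5 (0.50 ± 0.12, FDR = 0.11) and the methyltransferase EHMT1 (0.69 ± 0.18, FDR = 0.14). The DNA methyltransferases were nearer to 0, with DNMT1 at 0.23, DNMT3A at 0.09 and DNMT3B at -0.08.

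Among 35 tested adipogenic regulators 2 passed FDR ≤0.20, LMNA and CEBPB. CEBPB, an early transcription factor of adipocyte differentiation, was at 1.16, 0.854, 0.783 and 0.610 CPM in CN and at 2.26, 7.32, 2.06 and 3.74 CPM in DG (2.14 ± 0.49, FDR = 0.11), a low level with no overlap. CEBPA (0.02) and the preadipocyte factor DLK1 (1.02 ± 0.66, FDR = 0.69) did not pass. In the Wnt list 2 of 34 tested genes passed FDR ≤0.20, AXIN1 of the beta-catenin destruction complex (1.05 ± 0.21, FDR = 0.064) and the beta-catenin cofactor BCL9L (1.05 ± 0.29, FDR = 0.17). Of 37 TGF-beta and BMP genes 1 did, the activin subunit INHBA (1.06 ± 0.27, FDR = 0.14), and of 17 genes of the IGF and insulin axis none did. IGF2 averaged 41.5 ± 13.6 CPM in CN and 54.4 ± 10.6 CPM in DG at a locus that also carries a second gene identifier (0.39 ± 0.34, FDR = 0.80), and IGF1 103 ± 15.3 and 122 ± 34.1 CPM (0.24 ± 0.27, FDR = 0.86).

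The other lists gave no call at FDR ≤0.05. At FDR ≤0.20 there were 2 of 51 growth factors and receptors of the stroma, the Notch ligand JAG2 (1.47, FDR = 0.14) and the semaphorin SEMA3F (0.74, FDR = 0.15), and 1 of 41 lysosomal and sphingolipid hydrolases, ARSB (0.99, FDR = 0.11). LRP1 was the 1 gene of 44 in lipoprotein, cholesterol and retinoid handling. Cell division genes (43 tested, median 0.11), complement and coagulation genes (25, median 0.18), prostaglandin and steroid genes (18, median -0.08) and genes of the amino acid shortage response (20, median -0.03) had none. DESeq2 called the same numbers in each of these lists at FDR ≤0.05.

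All 19 genes that had been named for this depot in the study were tested and had higher means in DG. None passed FDR ≤0.05 in edgeR's quasi-likelihood test, in which 13 had an unadjusted p under 0.05 and 7 passed FDR ≤0.20, namely MBD3, LTBP4, AXIN1, LRP1, CEBPB, LMNA and ITGB4. DESeq2 and the likelihood-ratio test each called these 7 at FDR ≤0.05. The 19 genes had been chosen on these same samples, so their direction is not independent evidence. The study used another test, Cuffdiff on the alignments. At FDR ≤0.05 it reported many more genes between these diets than the 21 loci here, most of them higher in DG. With that test, the genes listed there for development, adipogenesis and lipid metabolism were reported as higher in DG at FDR ≤0.05. Its further Wnt genes were named from gene set work on genes at FDR ≤0.20. The secreted Wnt antagonists SFRP1 (0.99 ± 0.63), SFRP2 (0.53 ± 0.47), SFRP4 (1.52 ± 0.97) and SFRP5 (1.23 ± 0.53), together with DKK3 (0.87 ± 0.56), had FDR from 0.46 to 0.80. SFRP1 was at 10.4, 12.7, 8.05 and 11.5 CPM in CN and at 40.2, 24.999, 17.7 and 1.87 CPM in DG, so that 3 DG pools were above CN and DG pool M2 below it. RBP4, the plasma carrier of retinol (1.16 ± 0.79, FDR = 0.72), the lipocalin APOD (1.54 ± 0.64, FDR = 0.44), APOE (1.03 ± 0.38, FDR = 0.35), the thiolase ACAA1 (0.42 ± 0.15, FDR = 0.34) and the receptor LRP4 (0.88 ± 0.27, FDR = 0.23) did not pass either.

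**Figure D4:**
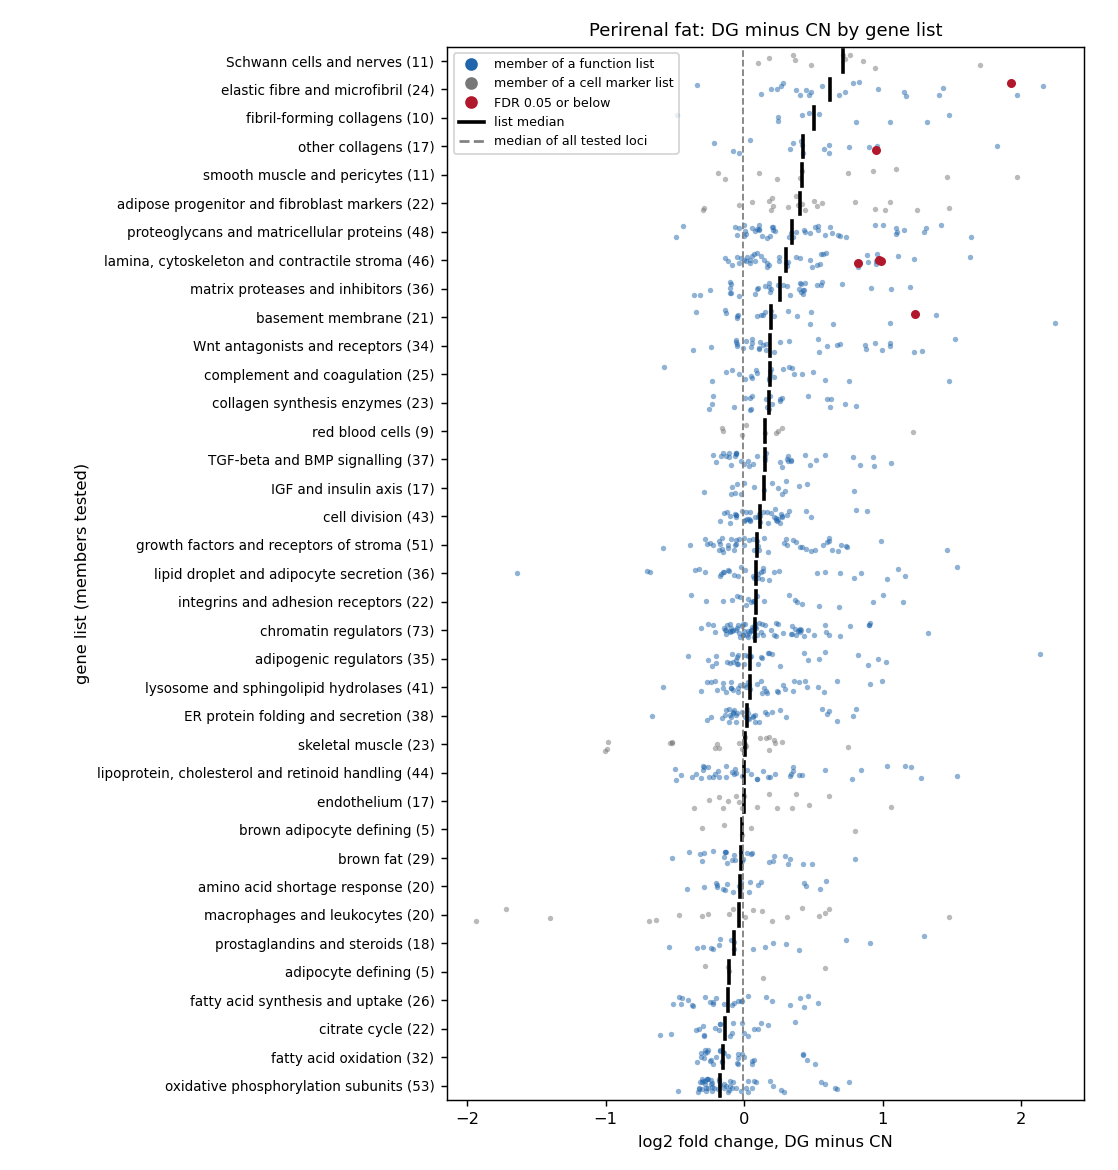
Log2 fold change of DG over CN for every tested member of each gene list with at least 5 tested members in perirenal fat, with blue points for function lists, grey points for cell marker lists, red points for genes at FDR ≤0.05, a black bar at each list's median and a dashed line at the median of all tested loci (-0.01). Among the lists drawn, stromal and matrix lists lie at the top (Schwann cell and nerve markers 0.72, elastic fibre 0.62) and mitochondrial lists at the bottom (oxidative phosphorylation -0.17).

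The genes with lower levels in DG were fewer, and none passed FDR ≤0.05 in edgeR's quasi-likelihood test, while DESeq2 called 33 loci lower and the likelihood-ratio test 22. The 5 named genes given here were taken after their values were seen from the 36 loci at FDR ≤0.20. GPD1L, related to the glycerol-3-phosphate dehydrogenase that supplies the backbone of triacylglycerol, had 73.8, 81.3, 77.4 and 68.6 CPM in CN and 55.3, 52.02, 47.5 and 50.4 CPM in DG, with no overlap (-0.55 ± 0.13, FDR = 0.11). ZNF75D had -0.77 ± 0.18 (FDR = 0.11), ST7L -0.46 ± 0.11 (FDR = 0.12), CLIP4 -0.69 ± 0.19 (FDR = 0.17) and C4orf47 -0.68 ± 0.18 (FDR = 0.15). In all 5 every CN pool was above every DG pool, and DESeq2 called 4 of them at FDR ≤0.05 (not CLIP4).

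The HY pools provide a further level for the same genes, with the caution that these comparisons share their CN or DG pools with the main one. LAMA5 was at 16.2, 15.7, 11.5 and 16.2 CPM in HY, which gave 0.14 for HY over CN and 1.10 for DG over HY on the log2 scale. FLNA was at 245, 173, 252 and 194 CPM (0.08 for HY over CN and 0.91 for DG over HY). COL18A1 was at 49.7, 56.9, 72.2 and 78.96 CPM (0.52 and 0.44 in the same order). For HSPB1 the values were 0.31 and 0.75. No locus passed FDR ≤0.05 for HY vs. CN or for DG vs. HY in edgeR's quasi-likelihood test, with 421 (2.31%) and 1800 (9.87%) loci at unadjusted p under 0.05. In several stromal genes HY pool M1 was high, with DLK1 at 16.3, 12.4, 96.8 and 16.8 CPM and SFRP4 at 0.555, 0.368, 8.0003 and 0.944 CPM in the HY pools.

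The same contrast was set beside the other tissues, where the libraries came from the same fetuses. Of the 18 genes past the threshold in perirenal fat whose name belonged to a single locus and was tested in muscle, 18 had higher means in DG in muscle too, beside 49.4% of 9590 names tested in both. Since the fetuses were the same, this shared direction is not independent evidence. LAMA5 (1.21 ± 0.23, FDR = 0.027) and CHID1 (1.501 ± 0.28, FDR = 0.022) passed FDR ≤0.05 in muscle. In subcutaneous fat 10 of 16 such genes had higher means in DG, beside 51.3% of 10171 names, and none passed. The subcutaneous pools varied widely in muscle RNA, with ACTA1, the skeletal muscle actin, between 103 and 24909 CPM, and the part of this in the subcutaneous values was not tested.

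When the difference of the effect itself was tested, no gene of 11486 passed FDR ≤0.05 between perirenal and subcutaneous fat (edgeR's quasi-likelihood test with pool as a block, 1032 genes or 8.98% at unadjusted p under 0.05). COL18A1 had 1.15 ± 0.34 (perirenal minus subcutaneous, FDR = 0.53), NPDC1 2.16 ± 0.48 (FDR = 0.53) and TANGO2 1.25 ± 0.39 (FDR = 0.53). Between perirenal fat and muscle 1 gene of 11357 passed (0.00881%, with 3.61% at unadjusted p under 0.05), NNAT, encoding neuronatin, with a difference of -1.94 ± 0.24 (FDR = 0.045). NNAT was not past the threshold in perirenal fat (-0.68, FDR = 0.47) and had 1.23 in muscle. FBLN2, past the threshold in perirenal fat, had a difference of 1.64 ± 0.31 from muscle (FDR = 0.39). Without DG pool M1, 16 genes passed against subcutaneous fat, all with a lower effect in perirenal fat, and the NNAT call held without CN pool M2 and with all pools but was lost when any of the other 7 was left out.

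**Figure D5:**
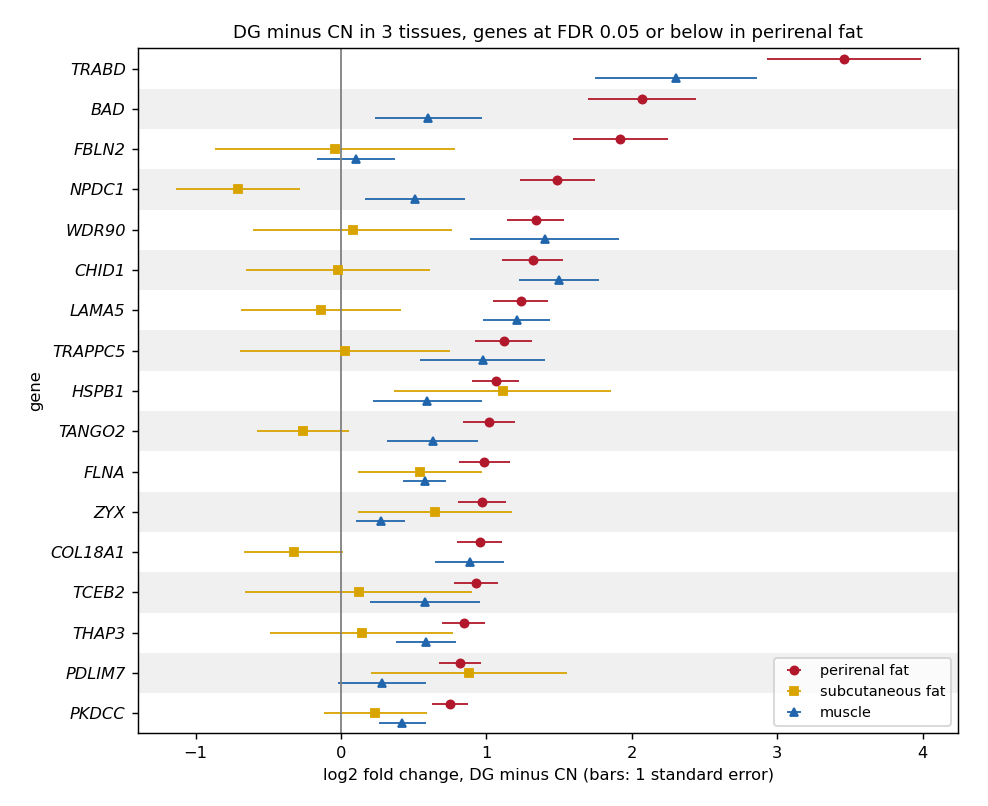
Log2 fold change of DG over CN, with bars of 1 standard error, in perirenal fat, subcutaneous fat and muscle. Drawn are 17 of the 18 genes at FDR ≤0.05 in perirenal fat whose name belonged to a single locus and was tested in muscle. Subcutaneous values are shown where the name was tested there. Muscle points are all above 0, as for LAMA5 (1.21) and FBLN2 (0.11), while subcutaneous points lie on both sides of 0 with wide bars.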

How the data were processed

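RNA was extracted from perirenal fat of fetuses, pooled within maternal diet and sex, and sequenced on the Illumina platform. Per the labels, the authors aligned reads with TopHat2 2.0.4, assembled transcripts with Cufflinks 2.1.1 and counted reads per locus with HTSeq against Oar_v3.1, and deposited raw, unnormalised counts, 1 file per pool. Whether strand was used and how reads of near-identical genes were counted is not given in the sources used here. The position of a locus is that of its bundle, and 27.4% of the 35060 loci share their range with another locus.

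Counts were fitted for all 12 perirenal pools with edgeR 4.0.16 (quasi-likelihood, robust, TMM factors) in R 4.3.3, after removal of low loci with filterByExpr on the diet groups (min.count 10, min.total.count 15), which left 18246. The contrast was DG minus CN, and FDR is the Benjamini-Hochberg adjusted p. CPM are normalised counts per 1000000 counts on tested loci after TMM scaling, with total counts of 7802700 to 15913813 per pool, and each SE was obtained from the log2 fold change and its F statistic (their ratio, after taking the root of F). FDR ≤0.20, the looser cut-off of the study's gene set work, was used for description. Levels are not per length and were not compared between genes. The fit was tested on simulated data.

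Symbols were matched to loci, and where several loci carried a symbol the tested one with the most counts was used. This applied to COL1A1, COL3A1, FN1, BGN, NPNT and PPARGC1A among others, and the values of their other loci are not given. Genes named were the 15 higher in DG and the 10 higher in CN with the smallest p among those at FDR ≤0.05 with a mean of at least 50 counts (0 were higher in CN), members of each list at FDR ≤0.05 (up to 6), the genes the study named for this depot and 16 fixed adipocyte, brown fat, matrix and growth factor genes. A few genes that met these criteria are not reported here. Other genes named were chosen after their values were seen. The comparison and the gene lists were chosen with earlier results of these data known. Effects were compared with those in subcutaneous fat and muscle by an interaction term over 16 libraries with pool as a block, for names held by 1 locus in each tissue. Alternatives were RLE (also used with DESeq2 1.42.0) and upper-quartile factors, no filter, a likelihood-ratio test, DESeq2, the 8 CN and DG pools alone, the pool number, sex or red blood cell markers as covariates, other thresholds and leaving out each pool. No sequence was printed, since no genome of this build was used here.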

Additional observations from a re-analysis of the deposited data

Results flagged for a closer look

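Of 288 groups of 4 pools examined for the genes taken by the naming rules, for those picked after their values were seen and for list members at FDR ≤0.20, 20 held a pool that stood far from the other 3 by Dixon's test, beside about 1 in 20 by chance. The explanations for these were not tested.

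In the CN pools, unnamed locus XLOC_033380 was low in CN pool F2 at 4.35 CPM against 8.17 to 8.54 CPM in the others. In the DG pools, ADIPOQ reached 10478 CPM in DG pool F2 against 2752 to 3663 CPM, and CIDEA reached 225 CPM in the same pool against 141 to 148 CPM. DG pool M2 was low for ITGB4 at 24.7 CPM against 48.3 to 51.5 CPM, and high for the Notch ligand JAG2 at 3.06 CPM against 1.65 to 1.83 CPM. RPN1 was low in DG pool M1 at 110.7 CPM against 132 to 135 CPM, and the lysosomal sulfatase ARSB was high in DG pool F1 at 67.4 CPM against 36.0 to 41.4 CPM.

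In the HY pools, pool M1 was high for several stromal genes. There DLK1 was at 96.8 CPM against 12.4 to 16.8 CPM, DKK3 at 32.7 CPM against 6.81 to 11.1 CPM, SFRP4 at 8.0003 CPM against 0.368 to 0.944 CPM, FN1 at 369.8 CPM against 134 to 173 CPM, BGN at 144 CPM against 87.3 to 96.7 CPM and NPNT at 4.90 CPM against 2.30 to 2.68 CPM, while LAMA5 was low at 11.5 CPM against 15.7 to 16.2 CPM. HY pool F2 was low for RPN1 at 50.6 CPM against 94.1 to 100.5 CPM, for GPD1L at 47.03 CPM against 65.4 to 68.4 CPM and for MFAP4 at 2.02 CPM against 4.96 to 5.55 CPM. HY pool F1 was high for COLGALT1 at 17.8 CPM against 10.1 to 10.5 CPM and for BCL9L at 4.72 CPM against 2.45 to 2.83 CPM, and HY pool M2 was high for CHID1 at 7.67 CPM against 4.72 to 5.15 CPM.

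NNAT differed between tissues in the test of the difference itself. Its log2 effect of DG over CN was -0.68 in perirenal fat and 1.23 in muscle, with a difference of -1.94 ± 0.24 (FDR = 0.045, edgeR's quasi-likelihood interaction test), and this call was lost when any pool other than CN M2 was left out.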

How the results depend on the processing

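The number of calls changed with the processing, and some alternatives also gave calls lower in DG. Beside 21 loci, the count at FDR ≤0.05 was 5 with RLE factors, 11 with upper-quartile factors, 35 with no filter, 193 with the likelihood-ratio test (22 of them lower in DG), 272 with DESeq2 (33 lower), 6 with only the 8 CN and DG pools, 1 with sex as a covariate and 0 with the red blood cell markers as a covariate, and it was 0 at FDR ≤0.01 and 341 at FDR ≤0.20. All 21 loci were among the 193 and the 272, and 20 were among the 35. Of the 6 loci with only the 8 CN and DG pools, 3 were among the 21. With single pools left out it ran from 0 to 78, and the 1 call without CN pool F2 was lower in DG. Beside 6 members of function lists, the count was 1 with RLE factors, 11 with no filter, 44 with DESeq2 and 2 with the 8 pools alone, and 0 to 14 with single pools left out. Against subcutaneous fat the count of 0 became 16 with the likelihood-ratio test and ran from 0 to 16 with single pools left out. Against muscle the count of 1 became 8 with the likelihood-ratio test and ran from 0 to 1. The causes were not tested.

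The pool numbers did not pair the samples, since same-numbered CN and DG pools had correlations of deviations from -0.05 to 0.09. With the pool number as a block 0 loci and 0 list members passed, and 1725 loci had an unadjusted p under 0.05. Without the block between tissues, 0 genes passed against subcutaneous fat and 1 against muscle.

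With single pools left out, near-zero values changed sign for LEP (-0.078 to 0.29), PPARGC1A (-0.42 to 0.11), ADIPOQ (-0.73 to 0.19), CIDEA (-0.15 to 0.22) and UCP1 (-0.27 to 0.17) on the log2 scale. Of the 96 genes recomputed singly, the others kept their sign under the alternatives run for single genes, which did not include the red blood cell covariate. Genes given only as a value beside a list, such as VIM and FASN, were not recomputed. List medians that changed sign with single pools left out were those of the lipid droplet (-0.09 to 0.17), brown fat (-0.13 to 0.06), citrate cycle (-0.30 to 0.02), adipogenic regulator (-0.02 to 0.10), endoplasmic reticulum (-0.05 to 0.04), amino acid shortage (-0.11 to 0.01), prostaglandin (-0.08 to 0.02), immediate early (-0.06 to 0.12), endothelial (-0.13 to 0.15), macrophage (-0.19 to 0.01), red blood cell (-0.19 to 0.34), lipoprotein (-0.11 to 0.13) and skeletal muscle lists. Medians of the markers that define adipocytes (-0.51 to 0.19) and brown adipocytes (-0.27 to 0.12) changed sign as well. Depth of 7802700 to 15913813 counts limits the calls at few reads, such as XLOC_005513, TRABD, BAD and CABIN1.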
